A study of Homo sapiens with 6 samples.

Results

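The genes described here are the WNT5 ligands and Wnt receptors: the ligands WNT5A and WNT5B, the receptor tyrosine kinases ROR1 and ROR2, the frizzled receptors FZD2, FZD6 and FZD7, the co-receptors LRP5 and LRP6, and the cytoplasmic adaptor DVL2. They were chosen by name, with the measured fold changes and p-values of the same comparison of si-CPSF3 with control known, and each was read from the row of the count table that carries its name. Where a name stood on several rows, the row with the highest mean count over all libraries was taken, which concerned only LRP6. All 10 genes had a row among 23382 gene names, and 7 of them had enough counts to enter the fit over 11069 genes. WNT5A, FZD6 and FZD7 fell short of that filter. Because the list was made with this comparison in view, the fold changes and p-values of these 10 genes say where each stood in the fit over all genes and are no independent test.

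The libraries came from UM-UC-3 (UMUC3 in the labels), an established human bladder cancer cell line. RNA was sequenced from 3 negative control libraries and from 3 in which, by the labels, CPSF3 was downregulated (si-CPSF3). CPSF3 is the endonuclease that cuts pre-mRNA before polyadenylation; the labels give neither dose nor time. Whether replicates were separate cultures is not stated, and every p-value refers to the variation among these 6 libraries, which may be technical. With 1 row per gene the libraries held 4145385 to 4378899 counts.

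WNT5A and WNT5B are secreted, lipid-modified ligands best known for signalling without beta-catenin. They bind frizzled receptors together with ROR1 or ROR2, and the signal passes through dishevelled proteins such as DVL2 to small GTPases, the kinase JNK or intracellular calcium, which steer cell shape, polarity and migration. The co-receptors LRP5 and LRP6 serve the other branch, in which Wnt ligands stabilise beta-catenin and its target genes are transcribed. In mouse bladder, Wnt ligands from the stroma are known to act on the urothelium.

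CPSF3 itself was examined as a check on the labels. CPSF3 had 20, 50 and 36 counts in control replicates 1, 2 and 3 and 56, 38 and 66 counts in si-CPSF3 replicates 1, 2 and 3. The groups overlapped and CPSF3 did not pass the test, with a log2 fold change of 0.67 (SE 0.32, edgeR adjusted p = 0.329), so its level does not bear out the label. Throughout, si-CPSF3 means the libraries so labelled, and lower and higher describe them relative to control. Of the 15 urothelial and epithelial markers, 12 had a row. Their summed level was 220.9 to 281 CPM (read counts scaled to library size and composition) in control and 217 to 253 CPM in si-CPSF3 libraries. Nearly all of it was KRT8 and KRT18, and KRT19, UPK2, CDH1 and EPCAM had 0 counts in all 6 libraries. Of the 5 markers tested 0 passed. By log2 fold change 3 were below 0 (KRT18 at -0.38, UPK1B at -0.95 and KRT7 at -0.57) and 2 above. Fibroblast markers, 4 of 9 with a row, summed to 11.4 to 14.7 CPM and 11.1 to 15.0 CPM in the same order, with PDGFRB at 0 counts. Leukocyte markers, 4 of 10 with a row, summed to 38.6 to 43.4 CPM in control and 28.1 to 34.4 CPM in si-CPSF3 libraries. Nearly all of it was LYZ and CD68, and neither passed the test. The lower sum came from CD68, at 25.3 ± 3.88 and 14.1 ± 2.49 CPM (log2 fold change -0.85, edgeR adjusted p = 0.0524). LYZ was at 15.7 ± 1.77 and 17.1 ± 1.63 CPM (0.12, edgeR adjusted p = 0.851). The part of these markers in the results below was not tested. The only erythroid and endothelial markers with a row, HBA1 and PECAM1, stayed under 0.5 CPM.

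WNT5B had the highest control level of the 10 genes and was the only one to pass the test at an adjusted p under 0.05, as lower. Its row held 495, 434 and 454 counts in control replicates 1, 2 and 3 and 177, 188 and 201 counts in si-CPSF3 replicates 1, 2 and 3. Every si-CPSF3 library lay far below every control library, and the spread within each group was small beside the gap between them. The level went from 107 ± 14.5 to 45.7 ± 1.81 CPM (SD, n = 3 in each group). This was 2.34-fold lower, a log2 fold change of -1.22 (SE 0.16) with an adjusted p of 0.000866 in edgeR's quasi-likelihood test, the twelfth smallest p among all genes tested. In the same fit 2.23% of all genes passed at an adjusted p under 0.05, 0.723% as higher and 1.51% as lower; scaled by library totals alone, 18.9% of the calls were higher against 32.4% with composition factors. WNT5B kept its call whichever of the 6 libraries was omitted. It was lost on the authors' FPKM values (a measure per gene length and library size, as deposited). There the log2 fold change was -1.21 (adjusted p = 0.0577, limma, pseudocount 1) and -1.24 (adjusted p = 0.0684, pseudocount 0.1). The FPKM values are not these counts divided by a fixed length. Counts per unit of FPKM, relative to each library's median gene, ranged 1.34-fold over libraries for WNT5B and 1.54-fold for the median of 6606 genes.

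WNT5A, the close paralogue of WNT5B, was barely detected. It had 4, 1 and 0 counts in the control libraries and 1, 0 and 0 counts in the si-CPSF3 libraries. The ratio of si-CPSF3 to control was 0.211, with a 95% counting interval of 0.00445 to 1.88, so no difference was detectable at this depth. Almost all WNT5 reads in this line were therefore WNT5B: 1383 beside 5 of WNT5A over the control group and 566 beside 1 over the si-CPSF3 group. WNT5A lies on chromosome 3 from 55465715 to 55505263 and WNT5B on chromosome 12 from 1617056 to 1647212 (RefSeq genes, GRCh38).

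**Figure D1:**
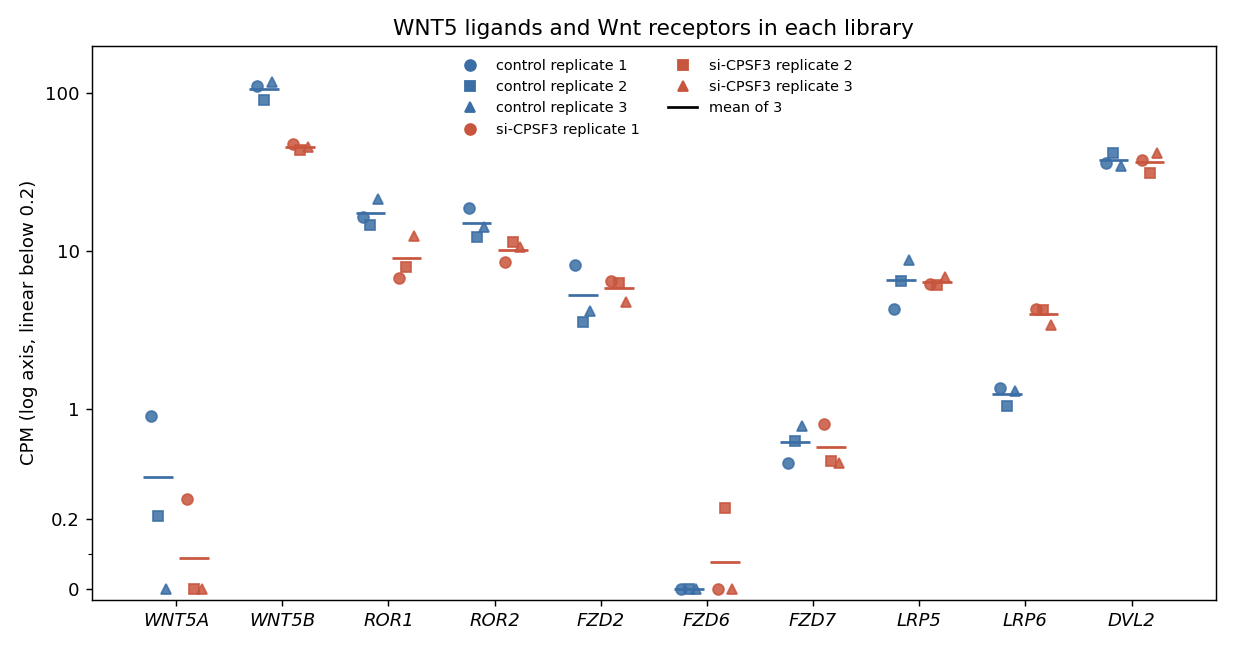
Level of each gene in each library, in CPM on a log axis that is linear below 0.2; blue is control, red is si-CPSF3, symbols mark replicates and bars the mean of 3. The si-CPSF3 points of WNT5B, ROR1 and ROR2 sit below all control points, those of LRP6 above, and the groups overlap for the other 6 genes.

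ROR1 and ROR2, the tyrosine kinase receptors that bind WNT5 ligands, were at similar levels and were both lower without passing the test. ROR1 lies on chromosome 1 from 63774017 to 64181498 and ROR2 on chromosome 9 from 91722601 to 91950228. ROR1 had 73, 70 and 82 counts in the control libraries and 25, 34 and 55 counts in the si-CPSF3 libraries. The groups did not overlap, and si-CPSF3 replicate 3 lay closest to the controls. The level was 17.5 ± 3.48 and 9.04 ± 3.03 CPM (SD, n = 3), a log2 fold change of -0.93 (SE 0.27) with an edgeR adjusted p of 0.0841. Without si-CPSF3 replicate 3 the log2 fold change was -1.24 (adjusted p = 0.0442, edgeR), and with no filter on low counts the adjusted p was 0.0200, so the call of ROR1 turned on these choices. ROR2 had 83, 59 and 55 counts in control and 32, 49 and 47 counts in si-CPSF3 libraries, where control replicate 1 and si-CPSF3 replicate 1 were the extremes and the nearest libraries of the groups differed by few counts. Its level was 15.1 ± 3.30 and 10.2 ± 1.47 CPM (SD, n = 3), with a log2 fold change of -0.56 (SE 0.24, edgeR adjusted p = 0.285). Among the 7 tested genes, 3 had groups that did not overlap and were lower (WNT5B, ROR1 and ROR2) and 1 was higher (LRP6). Over all genes tested 11.4% were lower and 9.82% higher in this way. LRP6 passed the filter only through its si-CPSF3 libraries. Once tested in this way it could lie only on the higher side, so its place there is no independent result. With no filter its log2 fold change was also 1.67 (edgeR adjusted p = 0.0817).

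Within each library, ROR1 reads per ROR2 read were 0.880, 1.19 and 1.49 in control replicates 1 to 3 and 0.781, 0.694 and 1.17 in si-CPSF3 replicates 1 to 3. These ratios overlapped, so the receptors were not shown to change by different amounts: the difference of the mean log2 ratios was -0.43 (two-sided exact permutation p = 0.2, adjusted over 3 ratios 0.3; 3 against 3 libraries allow no p below 0.1). On the FPKM values the same difference was -0.96. For ROR1, counts per unit of FPKM, taken relative to the median gene of the library, ranged 1.99-fold over libraries, from 2.59 in control replicate 3 to 5.17 in si-CPSF3 replicate 1, and 2.59% of 6606 genes with at least 20 counts and an FPKM over 0.1 in every library had a wider range. For ROR2 the same range was 1.34-fold, below the median of 1.54-fold over these genes. The FPKM level of ROR1 accordingly differed more between groups than its counts did, at 2.02 ± 0.678 in control and 0.753 ± 0.469 in si-CPSF3 libraries (SD, n = 3).

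The promoters of the 3 genes with lower, non-overlapping groups are shown because these receptors and their ligand lay on the same side; the sequences are from RefSeq (GRCh38.p14), and 6 of the 10 genes matched the promoter table used here. Each runs from upstream of to just beyond an annotated start, which for WNT5B lies inside the annotated gene. Capitals mark matches on either strand to the TATA box TATAAA and the GC box GGGCGG, which binds SP1-family factors; the TEAD motif GGAATG and the TCF/LEF motifs CTTTGAA and CTTTGAT were searched as well and had 0 matches in all 3.
WNT5B (chr12:1628981-1629280, plus strand): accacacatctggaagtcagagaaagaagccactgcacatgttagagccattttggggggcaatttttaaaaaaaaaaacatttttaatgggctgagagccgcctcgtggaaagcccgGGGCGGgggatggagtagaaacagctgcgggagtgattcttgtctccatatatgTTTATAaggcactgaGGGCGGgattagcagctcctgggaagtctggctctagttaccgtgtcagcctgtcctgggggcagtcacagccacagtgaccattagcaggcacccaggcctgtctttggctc
ROR1 (chr1:63773767-63774066, plus strand): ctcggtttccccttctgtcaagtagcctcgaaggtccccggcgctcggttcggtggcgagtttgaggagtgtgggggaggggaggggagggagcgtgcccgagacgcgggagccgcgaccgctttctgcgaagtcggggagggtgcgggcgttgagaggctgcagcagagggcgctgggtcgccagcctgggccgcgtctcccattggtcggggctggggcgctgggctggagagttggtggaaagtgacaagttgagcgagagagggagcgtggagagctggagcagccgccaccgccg
ROR2 (chr9:91950179-91950478, minus strand): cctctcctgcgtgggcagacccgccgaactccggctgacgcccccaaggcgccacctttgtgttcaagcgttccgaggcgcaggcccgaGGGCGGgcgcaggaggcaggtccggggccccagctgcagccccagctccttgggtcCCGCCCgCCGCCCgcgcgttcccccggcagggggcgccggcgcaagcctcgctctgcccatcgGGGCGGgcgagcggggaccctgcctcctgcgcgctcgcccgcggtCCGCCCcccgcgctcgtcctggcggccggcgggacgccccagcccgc
No motif searched was found in all 3 promoters. WNT5B held 2 GC boxes and 1 match to the letters of the TATA box, which lay on the strand opposite to the gene. ROR2 held 5 GC boxes and ROR1 held 0 of either. Of the listed genes whose promoters are not shown, DVL2 held 2 GC boxes, LRP5 held 3 and WNT5A held 0. Each of them had 0 matches to the TATA box, the TEAD motif and the TCF/LEF motifs. The motifs therefore did not set the genes shown apart from these. Of 35116 promoters of the same length, 11.53% held the TATA box, 44.95% the GC box, 14.03% the TEAD motif and 6.86% a TCF/LEF motif. The G and C content was 52% for WNT5B, 69% for ROR1 and 79.7% for ROR2. A match is a description of these letters and not a binding site.

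Frizzled receptors, the seven-span receptors that bind Wnt ligands directly, were at low counts among the 10 genes. FZD2 (chromosome 17, 44557484 to 44561262) had the most of the 3 listed, below FZD3 of the wider family (11.6 ± 3.05 CPM in control and 9.18 ± 1.52 CPM in si-CPSF3 libraries). FZD2 had 36, 17 and 16 counts in control and 24, 27 and 21 counts in si-CPSF3 libraries, so the si-CPSF3 libraries lay inside the control range, which control replicate 1 set. Its level was 5.28 ± 2.49 and 5.84 ± 0.934 CPM (SD, n = 3), with a log2 fold change of 0.14 and a 95% interval of -0.58 to 0.86 (edgeR adjusted p = 0.902). The sign turned without control replicate 2 and on log2(FPKM + 1). FZD7 (chromosome 2, 202033855 to 202038441), of the same subfamily as FZD2, had 2, 3 and 3 counts in control and 3, 2 and 2 counts in si-CPSF3 libraries, a ratio of 0.921 with a 95% counting interval of 0.284 to 2.91. FZD6 (chromosome 8, 103298494 to 103332866) had 0 counts in every control library and 0, 1 and 0 in the si-CPSF3 libraries. Reads of FZD2 outnumbered those of FZD7 in every library, 5.33 to 18 times in control and 8 to 13.5 times in si-CPSF3 libraries, and the log2 ratio did not differ between groups beyond its spread (difference 0.35, two-sided exact permutation p = 0.6).

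LRP6, on chromosome 12 from 12116025 to 12267044, was the only one of the 10 genes higher in every si-CPSF3 library, but at low counts. Its row with the highest mean held 6, 5 and 5 counts in control and 16, 18 and 15 counts in si-CPSF3 libraries. The groups were well apart, and libraries within a group differed by few counts. The level was 1.23 ± 0.168 and 3.97 ± 0.492 CPM (SD, n = 3), a log2 fold change of 1.67 (SE 0.47) with an edgeR adjusted p of 0.0772. LRP6 entered the fit through the si-CPSF3 group alone: 0 of 3 control libraries and 3 of 3 si-CPSF3 libraries were over the filter of 2.36 CPM, so a tested LRP6 had to differ. The other row under the name LRP6 held 0, 4 and 5 counts in control and 10, 18 and 2 counts in si-CPSF3 libraries, and there the groups overlapped because of si-CPSF3 replicate 3. Summed, the rows held 6, 9 and 10 against 26, 36 and 17 counts, a log2 fold change of 1.72 (edgeR adjusted p = 0.0382), so LRP6 passed the test only when its rows were added. The sources at hand do not say what distinguishes these rows or whether they share reads. In control replicates 2 and 3 and si-CPSF3 replicate 2 they held 4 and 5, 5 and 5, and 18 and 18 counts. If reads were listed on both rows, the sum counted them more than once, and its adjusted p could not be relied on.

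**Figure D2:**
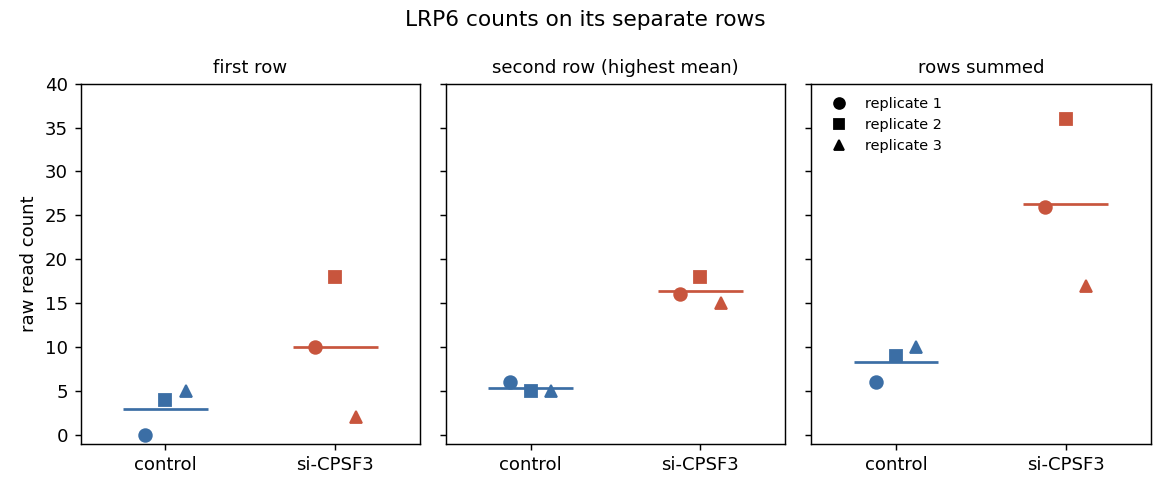
Raw read counts of LRP6 in each library on its separate rows of the count table and summed; blue is control, red is si-CPSF3, symbols mark replicates and lines the mean of 3. The row with the highest mean separates 5 to 6 from 15 to 18 counts, while on the other row si-CPSF3 replicate 3, at 2 counts, lies among the controls.

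LRP5 (chromosome 11, 68298412 to 68449275), the other co-receptor of the beta-catenin branch, showed no difference beyond its spread. It had 19, 31 and 34 counts in control and 23, 26 and 30 counts in si-CPSF3 libraries, all within the control range. The level was 6.53 ± 2.28 and 6.35 ± 0.395 CPM (SD, n = 3), with a log2 fold change of -0.03 and a 95% interval of -0.67 to 0.61 (edgeR adjusted p = 0.980). LRP5 reads per LRP6 read were 3.17, 6.20 and 6.80 in control and 1.44, 1.44 and 2 in si-CPSF3 libraries. The groups of this ratio did not overlap, with a difference of the mean log2 ratios of -1.67 (two-sided exact permutation p = 0.1, the smallest possible, adjusted over 3 ratios 0.3). With LRP5 nearly unchanged, the ratio restates the difference of LRP6 and is no separate result. It used the LRP6 row with the highest mean. The other LRP6 row had 0 counts in control replicate 1, where no ratio could be formed. DVL2 (chromosome 17, 7225342 to 7234517), the adaptor that relays the signal inside the cell, had 160, 202 and 134 counts in control and 140, 134 and 184 counts in si-CPSF3 libraries. Its groups overlapped throughout, at 37.7 ± 3.86 and 36.9 ± 5.25 CPM (SD, n = 3), and the log2 fold change was -0.03 with a 95% interval of -0.37 to 0.30 (edgeR adjusted p = 0.950). For LRP5 and DVL2 the sign of the change differed between processing alternatives.

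Measured per length on the deposited FPKM values, the control levels ran from WNT5B (52.6 ± 3.54) through DVL2 (21.5 ± 2.54) to LRP5 (2.24 ± 0.858), ROR1 (2.02 ± 0.678), FZD2 (1.77 ± 1.34) and ROR2 (1.33 ± 0.232), all SD with n = 3. WNT5B and DVL2 were each clear of the next gene, whereas the ranges of neighbours from LRP5 to ROR2 overlapped. Below them lay FZD7 (0.147 ± 0.0473), LRP6 (0.133 ± 0.00536) and WNT5A (0.161, 0.0610 and 0 by library), which overlapped as well, and FZD6 was listed at 0. In the si-CPSF3 libraries WNT5B (22.4 ± 3.67 FPKM) and DVL2 (22.5 ± 8.66 FPKM) overlapped, so that the ligand no longer stood above the adaptor. There, FZD2 was clear of ROR2 below it, ROR2, ROR1 and LRP6 overlapped as neighbours, and LRP6 was clear of FZD7. Counts per kilobase of the longest protein-coding transcript (GENCODE) kept WNT5B and DVL2 apart in those libraries, at 19.8 ± 0.787 and 12.2 ± 1.74 CPM per kilobase. By that measure the control order below DVL2 was also another: ROR2 came next after DVL2 (3.69 ± 0.806 CPM per kilobase) and LRP5 came after ROR1 and FZD2 (1.27 ± 0.442 CPM per kilobase). The ranges of ROR2 and LRP5 did not overlap there. The order of WNT5B and DVL2 in si-CPSF3 libraries and of LRP5, ROR1, FZD2 and ROR2 in control therefore depended on the measure. LRP6 stood eighth of the 10 genes in control and seventh in si-CPSF3 libraries by either measure, at 0.610 ± 0.219 FPKM in the latter.

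The rest of the Wnt pathway was read from 10 lists ordered by role, written with earlier results of these data known. Apart from the 10 genes above, the lists held 168 genes, of which 141 had a row and 93 were tested. Of these 4 passed the test as lower and 0 as higher, 4.30% lower against 1.51% of all genes. By unadjusted p under 0.05, 5 (5.38%) were higher and 10 (10.8%) lower, near the 7.05% and 8.33% of all genes tested. The median log2 fold change of the 93 was -0.04 against -0.0079 over all genes. The 4 calls came from 3 lists, and 2 of them were lost without control replicate 1, control replicate 2, si-CPSF3 replicate 1 or si-CPSF3 replicate 2.

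The co-receptor list gave 2 of the 4 calls, both syndecans, which are cell-surface heparan sulphate proteoglycans that bind growth factors including Wnt ligands. SDC1 had 104, 107 and 108 counts in control and 47, 44 and 37 counts in si-CPSF3 libraries. SDC4 had 275, 207 and 238 counts in control and 91, 109 and 126 counts in si-CPSF3 libraries. For both, every si-CPSF3 library was well below every control. The level of SDC1 was 24.6 ± 3.06 and 10.4 ± 2.12 CPM (SD, n = 3), and it fell by 1.24 on the log2 scale (SE 0.22, edgeR adjusted p = 0.00814). The level of SDC4 was 55.7 ± 10.9 and 26.2 ± 2.16 CPM, and it fell by 1.09 (SE 0.18, edgeR adjusted p = 0.00481). Both kept their calls whichever library was omitted, and neither passed on the FPKM values (adjusted p = 0.182 and 0.0688 with pseudocount 1, limma). The third tested gene of that list, RYK, a Wnt-binding receptor related to kinases, was at -0.13 (adjusted p = 0.891).

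In the calcium list 1 of 13 tested genes (7.69%) passed the test as lower and 0 as higher. Over all genes 1.51% passed as lower and 0.723% as higher. GNAQ, the G protein subunit that couples receptors to phospholipase C, had 68, 118 and 59 counts in control and 30, 45 and 35 counts in si-CPSF3 libraries, with control replicate 2 the highest. The groups did not overlap, and the log2 fold change was -1.06 (SE 0.26, edgeR adjusted p = 0.0438). Omitting any 1 of the 6 libraries ended the call of GNAQ, with adjusted p from 0.0541 to 0.161. Among the beta-catenin target genes 1 of 9 (11.1%) passed the test as lower and 0 as higher, beside the same shares of all genes. This was CD44, a hyaluronan receptor, at 608, 734 and 446 counts in control and 286, 348 and 407 counts in si-CPSF3 libraries. Control replicate 3 was the lowest control and si-CPSF3 replicate 3 the highest si-CPSF3 library, without overlap. The log2 fold change of CD44 was -0.70 (SE 0.15, edgeR adjusted p = 0.0275), and it kept its call without control replicate 3 or si-CPSF3 replicate 3 but not without any of the other 4 libraries (adjusted p = 0.0898 to 0.129). Scaling by library totals ended the calls of CD44 (adjusted p = 0.0563, edgeR) and GNAQ (0.0626), FPKM values ended both, and upper-quartile factors (0.0519) and limma-voom (0.0606) ended that of GNAQ. The 9 tested targets of beta-catenin had a median log2 fold change of -0.34, with 7 below 0 and 2 above. By edgeR's unadjusted p under 0.05, 3 (33.3%) were lower and 0 higher, against 8.33% and 7.05% of all genes. MYC and CCND1, other targets of beta-catenin, were at -0.35 (adjusted p = 0.308) and -0.13 (adjusted p = 0.726). AXIN2, the feedback target most often used as a readout of this branch, had 1 count in all control and 8 counts in all si-CPSF3 libraries and was not tested.

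The other 7 lists gave 0 calls by edgeR, with unadjusted p under 0.05 for 3 higher and 3 lower entries, which is read against the shares of all genes given above. Of the Wnt ligands other than WNT5A and WNT5B, 8 of 17 had a row and 3 were tested: WNT7B (32.8 ± 4.50 and 23.3 ± 5.87 CPM, log2 fold change -0.50, adjusted p = 0.263), WNT2B (0.53, adjusted p = 0.383) and WNT10B (-0.42, adjusted p = 0.653). Ligand secretion genes had 7 tested members with a median of 0.18, the sorting factors SNX3 at 0.10 and TMED10 at 0.36 being the most abundant. Of the frizzled family only FZD3 (-0.34) and SMO (-0.23), the hedgehog signal transducer of that family, were tested beside FZD2. Secreted and membrane inhibitors had 4 tested of 25, with a median of -0.22, TIKI1, a Wnt-inactivating protease, at -0.09 and KREMEN1, a dickkopf receptor, at 0.08. The dishevelled and destruction complex list had a median of 0.14 over 19 genes, with the kinases CSNK1D at 0.00 and GSK3A at 0.17. The beta-catenin and nuclear factor list had a median of -0.08 over 16, with TLE5 at 0.00 and the remodeller CHD8 at -0.18. The planar cell polarity and JNK list had a median of -0.03 over 20, with JUN at 0.05 and the GTPase RAC1 at 0.07.

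**Figure D3:**
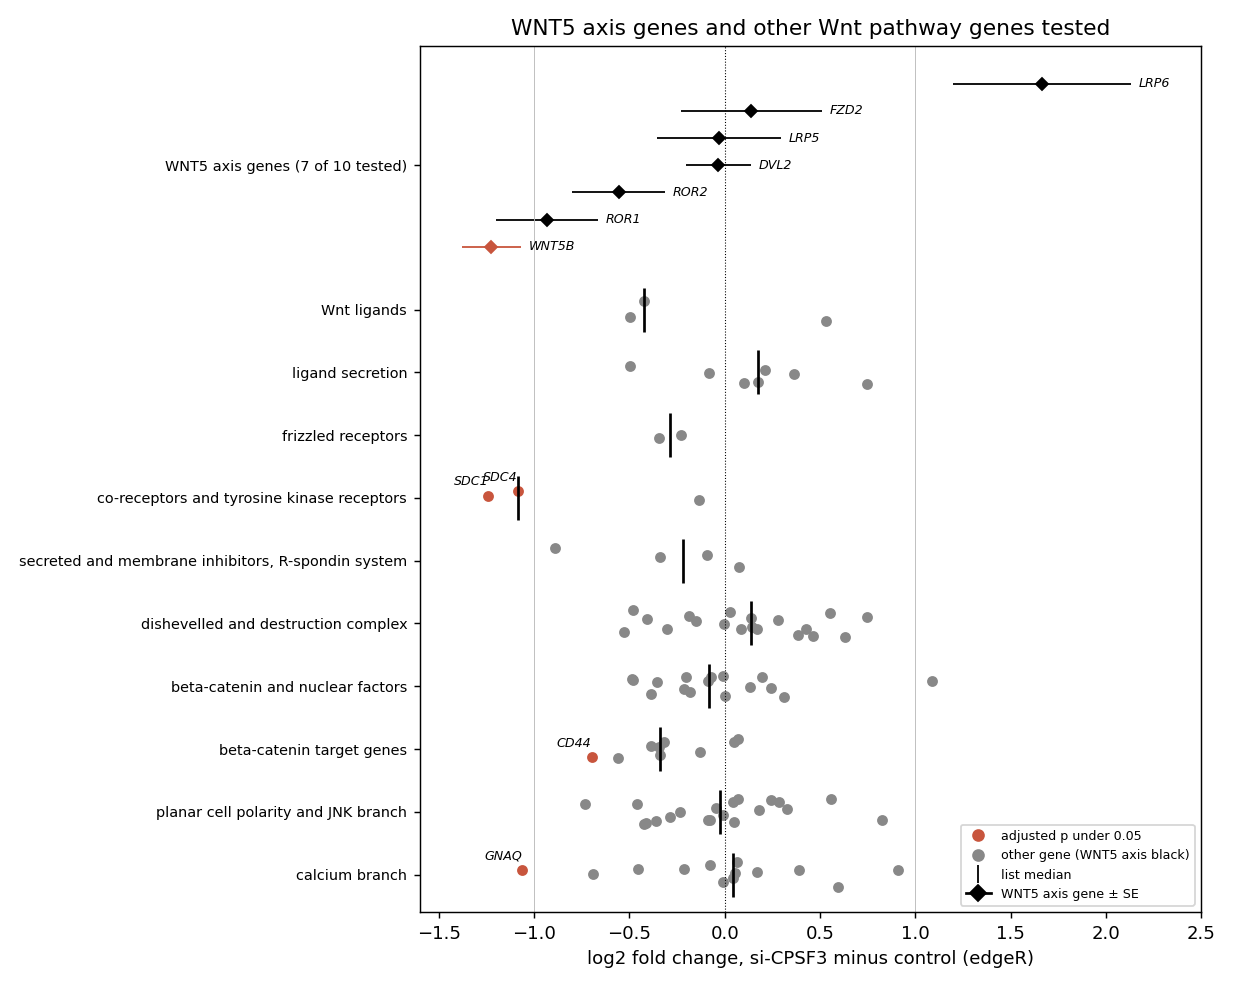
Log2 fold change (si-CPSF3 minus control, edgeR) of the 7 tested WNT5 axis genes with their SE and of every other tested gene in the 10 Wnt pathway lists; red marks an adjusted p under 0.05 and vertical bars the list medians. The red points are WNT5B, SDC1, SDC4, CD44 and GNAQ, all on the lower side, and the list medians lie between -1.09 and 0.18.

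Over all 8192 other genes with a mean of at least 5 CPM, the pattern most like that of WNT5B over the 6 libraries belonged to MAT2A, which makes S-adenosylmethionine, with a root mean square difference of 0.088 log2 units after centring. L1CAM, a neural adhesion molecule (0.099), and FHL2, a LIM-domain cofactor (0.11), came next. For ROR1 the closest were PLEKHG3 (0.13), PC, the pyruvate carboxylase (0.16), and KMT2E-AS1 (0.17). This likeness is a description over 6 libraries in 2 groups, which all these genes share.

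**Figure D4:**
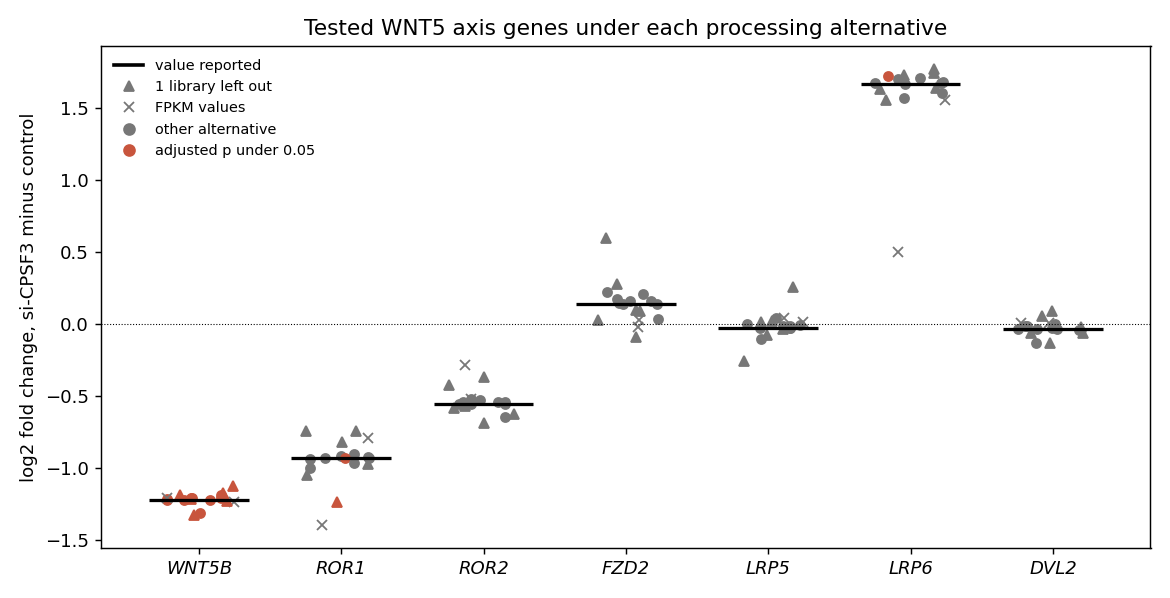
Log2 fold change of each tested WNT5 axis gene under the 17 processing alternatives (triangles 1 library left out, crosses FPKM values, circles other), with the black bar the value reported; red marks an adjusted p under 0.05. WNT5B stays between -1.33 and -1.12, ROR1, ROR2 and LRP6 keep their side, and FZD2, LRP5 and DVL2 lie around 0 on both sides.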

How the data were processed

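The authors deposited 2 tables over the 6 libraries: raw read counts per gene, whole numbers that were not normalised, and FPKM values, scaled by the authors to length and library size. The FPKM values are not the deposited counts divided by a fixed length, as counts per unit of FPKM varied between libraries. RNA was column-extracted and libraries made with a SMARTer kit, per the labels' protocols; per the submitters' processing notes, reads were placed on hg38. No source at hand names the aligner, counter, annotation or strand setting, and reads of overlapping or antisense genes cannot be told apart. Of 25479 rows, 1 row per gene name (highest mean) was kept.

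Counts were tested with edgeR 4.0.16 (R 4.3.3): TMM factors, filterByExpr with a minimum of 10 counts, quasi-likelihood F test of group, two-sided, Benjamini-Hochberg over 11069 genes at 0.05. SE was taken from the fold change and its F statistic, and 95% intervals are 1.96 SE, a normal approximation. They are narrower than the F test allows. For CPSF3 the interval was 0.050 to 1.30 although its unadjusted p in edgeR's F test was 0.0510. Counting intervals are exact binomial and cover counting error only. The fit was tested on simulated counts. Replicates differed by more than sampling noise (chi-square per degree of freedom 5.91 to 14.2). Alternatives used other scalings and filters, DESeq2 1.42.0, limma 3.58.1, FPKM values, summed rows, a replicate block and libraries left out.

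The 10 genes, the lists and the naming rule (genes past the threshold in each list, otherwise the 2 most abundant) were chosen with earlier results of these data known. Likeness was to be searched for WNT5A and ROR1; WNT5A was below the filter, and WNT5B was searched in its place after its values were seen. AXIN2, MYC, CCND1, WNT10B and RYK were also named after their values were seen. Log2 ratios between family members used counts as deposited, for the 3 of 5 intended pairs with counts in every library.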

Additional observations from a re-analysis of the deposited data

How the results depend on the processing

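WNT5B stayed lower in all 17 alternatives, at -1.33 to -1.12, and lost its call only on FPKM values, at -1.21 and -1.24 (pseudocounts 1 and 0.1). ROR1 passed at -0.93 with no filter, and LRP6 at 1.72 with its distinct rows summed, which may count reads more than once. Leaving out 1 library gave -1.24 to -0.74 for ROR1 and 1.55 to 1.77 for LRP6. ROR2 kept its side and missed the threshold throughout. FZD2 turned to -0.024 on log2(FPKM + 1). LRP5 turned to 0.00053 with upper-quartile factors, 0.039 with limma-voom, and 0.011 and 0.037 on FPKM, and DVL2 to 0.0047 and 0.0026 on FPKM. With 1 library left out FZD2 ran from -0.091 to 0.60, LRP5 from -0.26 to 0.26 and DVL2 from -0.13 to 0.092. The cause of these turns was not tested.

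Against 1 call among the 10 genes there were 2 with no filter, 2 with rows summed, 0 on either FPKM scale and 1 to 2 with 1 library left out. Against 4 calls in the other pathway lists there were 2 with library totals, 0 on either FPKM scale, and 2 to 4 with 1 library left out (2 without control replicate 1 or 2 or si-CPSF3 replicate 1 or 2). Over all genes, 247 were called, 80 higher and 167 lower. No filter gave 547 (232 and 315), FPKM 41 (11 and 30) and 31 (12 and 19), and library totals 36 higher. With 1 library left out, where fewer libraries were fitted, there were 85 to 199 (30 to 69 higher, 55 to 130 lower).

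Same-numbered libraries deviated from their group means with correlations of 0.11, 0.11 and -0.07. Libraries numbered 1 and 2 were the best match of their own number in both directions, and those numbered 3 were not. Because the correlations were this low, the numbers were not taken to pair the libraries. With the replicate block, 147 genes passed (41 higher, 106 lower), WNT5B among them, and 2 of the pathway lists, SDC1 and SDC4; CD44 (adjusted p = 0.0712) and GNAQ (0.0505) did not pass. Group totals of 0 to 8 counts for WNT5A, FZD6 and FZD7 limit what could be seen of these genes.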
